A study of Mus musculus with 2 samples.

Results

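The genes described here make cholesterol and fatty acids, control that synthesis or move sterols, and were 33 of the 49492 genes in the count table. They were chosen by name from the gene symbols and fall into 5 roles: 7 enzymes of the mevalonate steps, 11 enzymes from squalene to cholesterol, 5 genes that control sterol regulatory element binding proteins (SREBP), 4 genes of sterol transport and 6 genes of fatty acid synthesis. All 33 were found and all had at least 20 counts over both libraries, the minimum for a test, as did 17356 genes in all. RNA came from mammary basal cells, the contractile outer cells of the mammary ducts, sorted by CD24 and CD29 after removal of cells bearing CD45, CD31 or TER119. The CL basal library came from adult female wild-type mice given clodronate liposomes (CL), lipid vesicles that kill the macrophages that take them up. The Ctrl basal library came from adult female wild-type mice whose treatment is labelled none, while the design text of the series names saline. Both libraries are labelled day 7. The number of mice behind a library is not given in the sources used here.

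Each group had 1 library, so no difference has a replicate check. Intervals are 95% exact binomial (Clopper-Pearson) intervals of the reads and cover counting error only, and each test compares these 2 libraries, not the conditions. The libraries held 37846008 counts (Ctrl basal) and 38962512 counts (CL basal), and 3 counts, the limit that a count of 0 allows, corresponded to 0.0782 and 0.0780 CPM, the usual scaling of counts to a common library size. Basal markers had many counts, with *Myh11* at 285095 in Ctrl basal and 290054 in CL basal, *Krt14* at 210758 and 232845 and *Krt17* at 87869 and 98774. Of the 10 basal markers, 0 were past 1.5-fold in either direction. Markers of other cell types were also read, among them the luminal *Krt8* (86539 and 53150 counts) and the endothelial *Pecam1* (5503 and 4266). Luminal markers moved with the groups: 14 of 16 were lower in CL basal past 1.5-fold, and their summed level was 5410 CPM in Ctrl basal and 3312 CPM in CL basal. In sorted cells of this kind, fewer cells of a type and less RNA per cell cannot be told apart.

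Cells make cholesterol from acetyl-CoA through mevalonate, squalene and lanosterol, and make fatty acids from the same acetyl-CoA through malonyl-CoA. The transcription factors SREBP-1 and SREBP-2 switch on most of these enzymes. When membrane sterol is low, the escort protein Scap, no longer held by Insig proteins, carries them from the endoplasmic reticulum to the Golgi for cleavage. Mammary epithelium is known for strong lipid synthesis in lactation, mainly in its luminal layer, while the basal cells of the resting gland need sterols and fatty acids for their own membranes.

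As a group, these genes differed little between the CL basal and the Ctrl basal library. Their median log2 fold change was -0.01, against -0.01 over all tested genes, and 17 of the 33 values were below 0 and 16 above. The summed level was 769.7 CPM in Ctrl basal and 811.5 CPM in CL basal, a log2 ratio of 0.08 (interval 0.05 to 0.10). For 23 of the 33 genes the whole counting interval lay within 1.5-fold of no difference in either direction. At an adjusted p under 0.05 (two-sided exact binomial test, Benjamini-Hochberg over all tested genes), 8 genes were lower and 7 higher, while 22.0% and 22.6% of all tested genes were. With a change of at least 1.5-fold as well, 4 genes were lower (*Nsdhl*, *Dhcr7*, *Mvk* and *Scd1*) and 1 was higher (*Abcg1*), against a background of 8.54% lower and 4.10% higher. At 2-fold, *Nsdhl* and *Dhcr7* were lower and 0 genes were higher, against a background of 4.19% and 1.87%. With all counts halved, *Mvk* and *Dhcr7* lost the call at 1.5-fold and 2 genes (*Nsdhl* and *Scd1*) were lower.

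**Figure D1:**
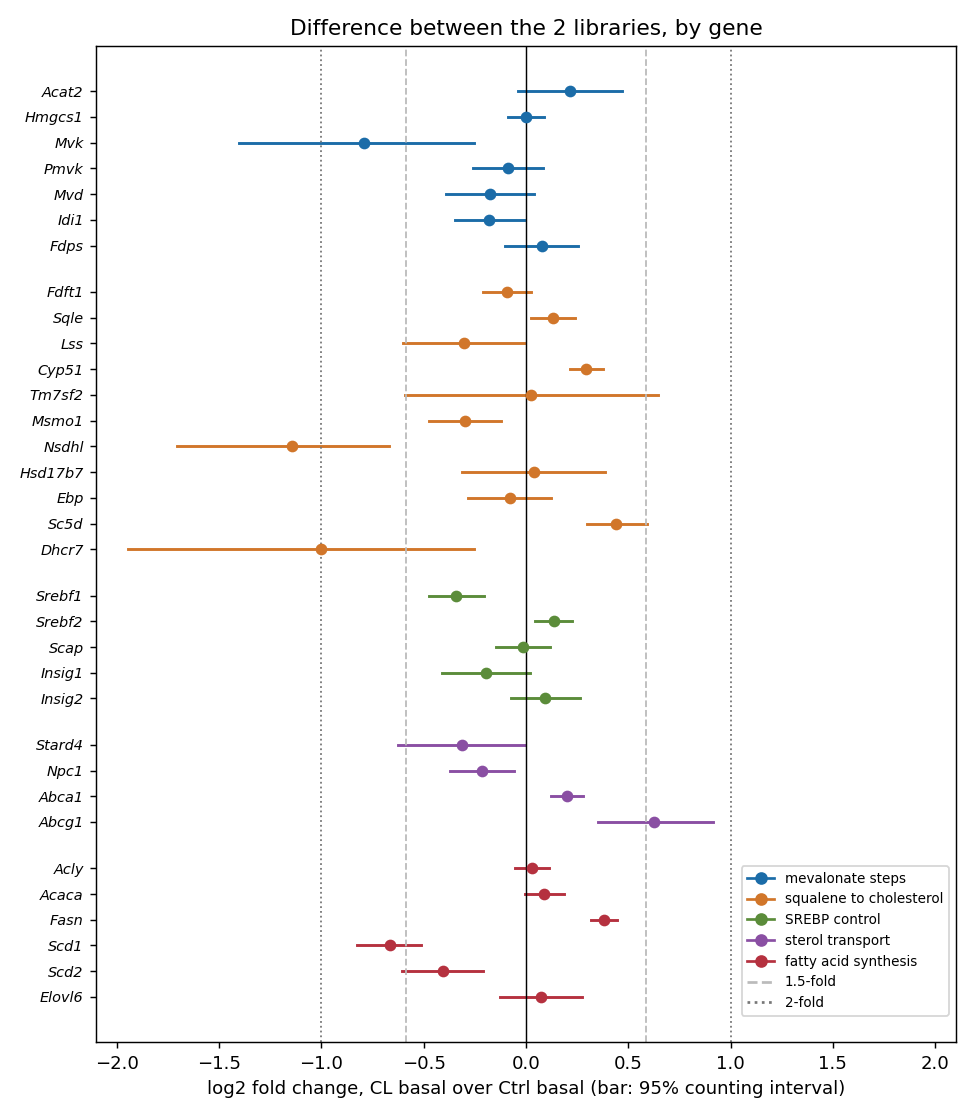
The difference in log2 (CL basal over Ctrl basal) for each of the 33 genes, grouped by role, with points for the estimate and bars for the 95% counting interval. Most points lie between the dashed lines of 1.5-fold, while *Nsdhl* at -1.14, *Dhcr7* at -1.004, *Mvk* at -0.79 and *Scd1* at -0.67 lie below them and *Abcg1* at 0.62 lies above.

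The upstream bases of 5 genes are shown because these genes include level, lower and higher genes of sterol and fatty acid synthesis and were chosen after their values were seen. *Hmgcs1* was level, *Mvk* and *Nsdhl* were lower, and *Sc5d* and *Fasn* were higher in CL basal. Each run holds the 250 bases before the RefSeq gene start (GRCm38.p6), read 5′ to 3′ on the strand of the gene, at chr13:119690101-119690350 (plus strand) for *Hmgcs1*, chr5:114444019-114444268 (plus strand) for *Mvk*, chrX:72918271-72918520 (plus strand) for *Nsdhl*, chr9:42264301-42264550 (minus strand) for *Sc5d* and chr11:120824548-120824797 (minus strand) for *Fasn*. Capitals mark matches, on either strand, to CCAAT (the motif of the factor NF-Y), TCACNCCAC (the core of a sterol regulatory element) or CACGTG (an E-box, which SREBP proteins can also bind).
*Hmgcs1* promoter: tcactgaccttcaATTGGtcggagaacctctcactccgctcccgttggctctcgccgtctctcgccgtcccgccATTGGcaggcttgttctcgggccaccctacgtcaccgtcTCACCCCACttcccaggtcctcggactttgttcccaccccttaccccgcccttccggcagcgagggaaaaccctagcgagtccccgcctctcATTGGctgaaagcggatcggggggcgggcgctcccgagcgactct
*Mvk* promoter: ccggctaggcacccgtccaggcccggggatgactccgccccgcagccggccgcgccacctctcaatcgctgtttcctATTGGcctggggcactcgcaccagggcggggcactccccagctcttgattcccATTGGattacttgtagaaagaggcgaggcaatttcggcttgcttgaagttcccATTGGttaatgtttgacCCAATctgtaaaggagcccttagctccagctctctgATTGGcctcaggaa
*Nsdhl* promoter: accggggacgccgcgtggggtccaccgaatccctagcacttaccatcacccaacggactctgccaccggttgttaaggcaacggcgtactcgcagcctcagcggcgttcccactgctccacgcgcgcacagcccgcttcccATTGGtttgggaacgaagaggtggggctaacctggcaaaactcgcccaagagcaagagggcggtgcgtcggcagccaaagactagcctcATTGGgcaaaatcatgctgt
*Sc5d* promoter: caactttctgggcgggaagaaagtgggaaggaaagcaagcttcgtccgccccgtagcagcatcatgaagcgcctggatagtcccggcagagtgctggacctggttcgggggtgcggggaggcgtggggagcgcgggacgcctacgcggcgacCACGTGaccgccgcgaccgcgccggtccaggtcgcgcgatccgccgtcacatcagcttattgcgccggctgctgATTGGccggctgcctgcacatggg
*Fasn* promoter: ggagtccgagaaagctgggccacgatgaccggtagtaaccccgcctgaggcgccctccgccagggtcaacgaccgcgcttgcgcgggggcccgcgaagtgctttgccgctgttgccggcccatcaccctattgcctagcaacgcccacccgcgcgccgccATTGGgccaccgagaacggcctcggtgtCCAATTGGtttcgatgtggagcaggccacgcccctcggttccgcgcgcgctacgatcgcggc

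*Hmgcs1* held 3 matches to CCAAT and 1 to TCACNCCAC, *Mvk* held 5 to CCAAT, *Nsdhl* held 2, *Sc5d* held 1 to CCAAT and 1 to CACGTG, and *Fasn* held 3 to CCAAT, of which 2 overlap in 1 run of capitals. CCAAT stood before each of these genes, which were chosen to include lower, level and higher ones. Whether it goes with direction was not tested. RefSeq starts were found for 25 of the 33 genes, with 33 start sites among them. A match to CCAAT was present in 20 of these 33 windows (60.6%) and in 33.8% of all 32851 windows of the same length. CACGTG was present in 6 windows (18.2%, against 6.02% of all windows), and TCACNCCAC in 1 (3.03% against 1.05%). A match describes letters in a window and not a bound site, and no match says only that these letters are not in it.

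The mevalonate steps turn acetyl-CoA into farnesyl diphosphate, the branch point of sterols, dolichol and protein prenylation. *Hmgcs1* (chromosome 13, 119690462 to 119708086, GRCm38), which condenses acetyl-CoA with acetoacetyl-CoA, had 2039 counts in Ctrl basal and 2046 in CL basal, a log2 fold change (CL basal over Ctrl basal) of 0.00 (interval -0.09 to 0.09). It had the highest level per length of the 33 genes in Ctrl basal, 16.5 CPM per kilobase of exon in each library. *Mvk* (chromosome 5, 114444269 to 114460591), mevalonate kinase, had 74 counts in Ctrl basal and 42 in CL basal, a difference of -0.79 in log2 (interval -1.40 to -0.26). It was the only mevalonate gene past the adjusted p (0.0104, exact binomial test), where 22.0% of all tested genes were lower and 22.6% higher.

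The other 5 mevalonate genes did not pass it. *Acat2*, which joins 2 acetyl-CoA molecules, had 238 counts in Ctrl basal and 277 in CL basal (log2 fold change 0.21, interval -0.04 to 0.47). *Pmvk*, the second kinase of the route, had 588 and 555 counts in the same order (-0.09, -0.26 to 0.08). *Mvd*, which decarboxylates the product to isopentenyl diphosphate, had 382 and 339 counts (-0.18, -0.39 to 0.04). These 3 intervals include 0, and so does that of *Fdps*, the farnesyl diphosphate synthase, with 501 and 530 counts (0.08, -0.10 to 0.26). *Idi1*, the isopentenyl diphosphate isomerase, had 619 and 548 counts, and its interval of -0.35 to -0.01 around -0.18 excluded 0 although the adjusted p was 0.0756. *Fdps* shares 1124 of its 4208 exonic bases with *Gm43738* on the same strand, which had 581 and 607 counts. How reads in the shared bases were counted is not given, so the counts of *Fdps* may not be a separate measurement. Summed over the 7 genes, the level was 115.8 CPM in Ctrl basal and 112.8 CPM in CL basal, a log2 ratio of -0.04 (interval -0.10 to 0.02), and the median log2 fold change was -0.09.

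From squalene to cholesterol, 3 of 11 enzymes were higher and 3 were lower at the adjusted p, close to the 22.6% and 22.0% of all tested genes, and the 6 included neighbouring steps of opposite direction. Lanosterol loses its methyl groups through *Cyp51*, *Msmo1*, *Nsdhl* and *Hsd17b7*. *Cyp51* (chromosome 5, 4081145 to 4104746), the 14-alpha-demethylase, had 2322 counts in Ctrl basal and 2857 in CL basal, a difference of 0.30 in log2 (interval 0.22 to 0.37). *Nsdhl* (chromosome X, 72918557 to 72958514), a dehydrogenase of the following demethylation, had 106 and 47 counts, a difference of -1.14 in log2 (interval -1.71 to -0.67, adjusted p 1.07e-05, exact binomial test). This was the greatest fall among the 33 genes. *Msmo1*, the methyl oxidase that acts just before *Nsdhl*, had 582 and 475 counts (-0.30, -0.47 to -0.12). *Hsd17b7*, the ketoreductase that acts after it, had 138 and 142 counts (0.04, -0.31 to 0.39), and no difference was detectable at this depth. For each 100 counts of *Cyp51* there were 4.57 counts of *Nsdhl* in Ctrl basal (interval 3.72 to 5.55) and 1.65 in CL basal (1.21 to 2.19). This ratio does not depend on how the libraries are scaled, and the pair was chosen with both values known.

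The last steps also went apart. *Sc5d* (chromosome 9, 42251595 to 42264256), which desaturates the sterol ring, had 653 counts in Ctrl basal and 890 in CL basal, a difference of 0.44 in log2 (interval 0.30 to 0.59, adjusted p 1.93e-08, exact binomial test). *Dhcr7* (chromosome 7, 143823145 to 143848410), the reductase that completes cholesterol, had 40 and 19 counts, a difference of -1.004 in log2 (interval -1.95 to -0.26, adjusted p 0.0216, exact binomial test). *Dhcr7* had the lowest level per length of the 33 genes, 0.179 CPM per kilobase of exon in Ctrl basal, so its fall rests on few reads. *Ebp*, the sterol isomerase between them and the demethylations, had 412 and 391 counts (-0.08, interval -0.28 to 0.12).

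Of the remaining enzymes, 1 passed the adjusted p. *Fdft1*, squalene synthase, had 1218 counts in Ctrl basal and 1146 in CL basal (log2 fold change -0.09, interval -0.21 to 0.03). *Sqle*, squalene epoxidase and a rate-limiting enzyme, had 1360 and 1495 counts (0.13, 0.03 to 0.24), higher at an adjusted p of 0.0351 (exact binomial test). *Lss*, which closes the rings to lanosterol, had 217 and 176 counts (-0.30, -0.60 to -0.01), and its adjusted p was 0.0834 (exact binomial test). *Tm7sf2*, a sterol reductase, had 46 and 47 counts (0.03, -0.59 to 0.65), too few to show a 1.5-fold difference either way. It shares 532 of its 3484 exonic bases with *Vps51* on the same strand, which had 340 and 277 counts. *Fdft1* shares 767 of its 2860 with *Ctsb* on the opposite strand, which had 9192 and 9769 counts, and *Cyp51* shares 166 of its 4415 with *Akap9*, also opposite, which had 11681 and 12345, so reads there cannot be assigned with certainty. The summed level of the 11 enzymes was 185 CPM in Ctrl basal and 199.9 CPM in CL basal, a log2 ratio of 0.11 (interval 0.06 to 0.16), while their median log2 fold change was -0.08. The sum and the median thus differ in sign. *Cyp51*, *Sqle* and *Sc5d*, which were higher, hold many of the reads.

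**Figure D2:**
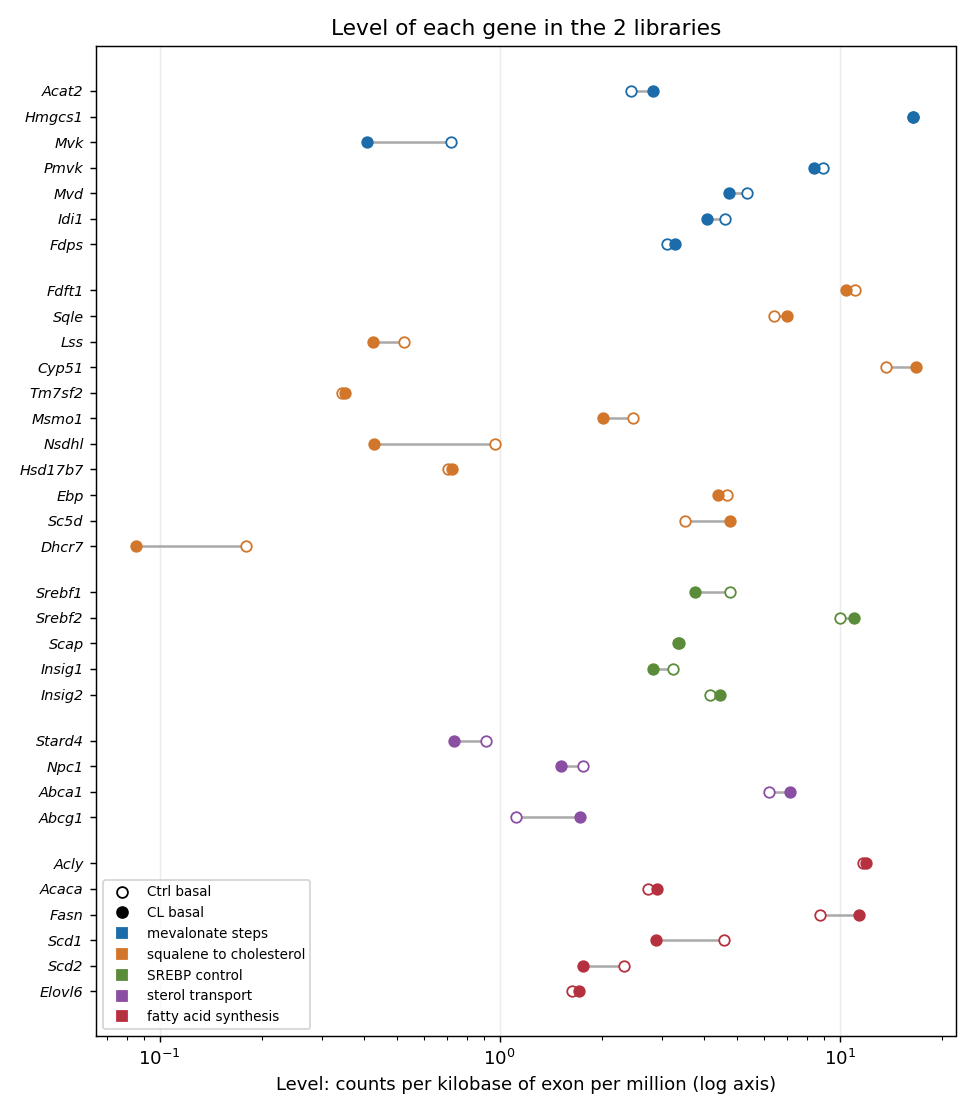
The level of each gene in CPM per kilobase of exon, on a log axis, with open circles for Ctrl basal, filled circles for CL basal and a line joining them. Most pairs nearly coincide, the genes with wide gaps to the left (*Nsdhl*, *Dhcr7* and *Mvk*) are of low level, and *Scd1* and *Fasn* move in opposite directions.

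Levels within a pathway spanned a wide range. Per kilobase of exon, the mevalonate genes differed by a ratio of 22.8 between *Hmgcs1* and *Mvk* (0.721) in Ctrl basal, and the enzymes from squalene to cholesterol by a ratio of 76.5 between *Cyp51* (13.7) and *Dhcr7*. The SREBP control genes differed by a ratio of 3.08. In Ctrl basal the order began with *Hmgcs1*, *Cyp51*, *Acly* (11.7), *Fdft1* (11.1) and *Srebf2* (10), and ended with *Hsd17b7* (0.705), *Lss* (0.525), *Tm7sf2* (0.344) and *Dhcr7*. In CL basal *Cyp51* (16.8) stood just before *Hmgcs1* (16.5), and *Fasn* stood at place 4 after place 7 in Ctrl basal. The length counts every annotated exon of a gene, so levels per length depend on the annotation, as for *Lss* with 10787 exonic bases.

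Of the 5 genes that control SREBP, 1 was higher and 1 lower at the adjusted p, near the 22.6% and 22.0% of all tested genes. *Srebf2* was the higher and *Srebf1* the lower, and neither passed 1.5-fold. *Srebf1* (chromosome 11, 60199089 to 60222581), whose product SREBP-1 mainly drives fatty acid genes, had 1027 counts in Ctrl basal and 813 in CL basal, a difference of -0.34 in log2 (interval -0.47 to -0.21). *Srebf2* (chromosome 15, 82147266 to 82205376), whose product SREBP-2 mainly drives sterol genes, had 1914 and 2109 counts, a difference of 0.14 in log2 (interval 0.05 to 0.23). For each 100 counts of *Srebf2* there were 53.7 counts of *Srebf1* in Ctrl basal (interval 49.7 to 57.9) and 38.5 in CL basal (35.5 to 41.8), a pair chosen with both directions known. *Srebf1* shares 109 of its 5634 exonic bases with *Rai1* on the opposite strand, which had 2115 and 1847 counts.

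The proteins that hold or escort SREBP did not pass the adjusted p. *Scap*, the escort, had 963 counts in Ctrl basal and 956 in CL basal (log2 fold change -0.01, interval -0.14 to 0.12), but 985 of its 7443 exonic bases overlap *5830462I19Rik* on the opposite strand. *Insig1*, a retention protein and itself a well-known SREBP target, had 385 and 337 counts (-0.19, -0.41 to 0.02). *Insig2*, the other retention protein, had 555 and 594 counts (0.09, -0.08 to 0.26). Summed, the 5 genes stood at 126.3 CPM in Ctrl basal and 125.1 CPM in CL basal, a log2 ratio of -0.01 (interval -0.07 to 0.04), with a median log2 fold change of -0.01.

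Among the 4 genes of sterol transport, both exporters were higher in CL basal. At the adjusted p, 2 of the 4 were higher and 1 was lower, where 22.6% and 22.0% of all tested genes were. *Abcg1* (chromosome 17, 31057698 to 31115777), which exports sterol to lipoprotein particles, had 174 counts in Ctrl basal and 270 in CL basal, a difference of 0.62 in log2 (interval 0.35 to 0.91, adjusted p 3.53e-05, exact binomial test). *Abca1* (chromosome 4, 53030787 to 53159895), which exports sterol to lipid-poor apolipoprotein, had 2468 and 2845 counts, a difference of 0.20 in log2 (interval 0.12 to 0.28). Both are known targets of the liver X receptors, whose activity was not tested. *Npc1*, which takes sterol out of the lysosome, had 723 and 624 counts (-0.22, -0.37 to -0.06) and was lower at an adjusted p of 0.0174 (exact binomial test). *Stard4*, a carrier of sterol in the cytosol, had 196 and 158 counts (-0.31, -0.63 to -0.01) with an adjusted p of 0.0926 (exact binomial test).

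Macrophages also express both exporters. The 14 macrophage markers summed to 47.5 CPM in Ctrl basal and 38.4 CPM in CL basal, with 2 of the 9 tested lower past 1.5-fold and 0 higher. *Cd14*, with the most counts, had 748 and 468, followed by *Mertk* (353 and 421) and *Cd68* (233 and 185). Named after their values were seen, *Mrc1* had 168 and 86 counts (log2 fold change -0.95), *C1qa* 16 and 12, *C1qb* 12 and 6, *C1qc* 16 and 6, *Csf1r* 64 and 89, and *Adgre1* 7 and 10. Endothelial markers summed to 395.9 CPM in Ctrl basal and 323.4 CPM in CL basal, with 0 of 6 past 1.5-fold, and fibroblast markers to 262.5 and 213.7 CPM, with 2 of 7 lower. At the adjusted p, 3 endothelial genes were lower and 1, *Emcn* (154 and 215 counts), was higher. Of all tested genes, 22.0% were lower and 22.6% higher. The endothelial genes with the most counts were *Cdh5* (6462 and 5173), *Pecam1* (5503 and 4266) and *Kdr* (1413 and 1114). Those of the fibroblast list were *Col3a1* (2330 and 2508), *Col1a2* (2366 and 2027) and *Dcn* (2356 and 1462), and at the adjusted p 6 of the 7 fibroblast genes were lower and 1, *Col3a1*, was higher. The part of these cells and of macrophages in the values of *Abca1* and *Abcg1* was not tested.

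In fatty acid synthesis, the synthase and the desaturases differed in opposite directions. At the adjusted p, 1 of the 6 genes was higher and 2 were lower, where 22.6% and 22.0% of all tested genes were. Only *Scd1* passed 1.5-fold. *Fasn* (chromosome 11, 120805846 to 120824547), the fatty acid synthase, had 3684 counts in Ctrl basal and 4814 in CL basal, a difference of 0.38 in log2 (interval 0.32 to 0.44, adjusted p 1.73e-32, exact binomial test). *Scd1* (chromosome 19, 44394451 to 44407709), which makes monounsaturated from saturated fatty acids, had 850 and 536 counts, a difference of -0.67 in log2 (interval -0.83 to -0.51, adjusted p 2.98e-16, exact binomial test). *Scd2* (chromosome 19, 44293676 to 44306864), a second desaturase of the same kind, had 487 and 368 counts, a difference of -0.41 in log2 (interval -0.61 to -0.21). For each 100 counts of *Fasn* there were 23.1 counts of *Scd1* in Ctrl basal (interval 21.4 to 24.9) and 11.1 in CL basal (10.2 to 12.2). The same ratio for *Scd2* was 13.2 (12 to 14.5) and 7.64 (6.86 to 8.5). These ratios restate the opposite directions on a scale free of library size and are no further test.

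The enzymes that supply and extend the chain were level. *Acly*, which yields cytosolic acetyl-CoA from citrate, had 2366 counts in Ctrl basal and 2423 in CL basal (log2 fold change 0.03, interval -0.05 to 0.11). *Acaca*, which makes malonyl-CoA, had 1788 and 1908 counts (0.09, -0.00 to 0.18). *Elovl6*, which extends palmitate, had 402 and 424 counts (0.07, -0.13 to 0.27). None of these 3 passed the adjusted p, and each interval lay within 1.5-fold of no difference. Over the 6 genes the median log2 fold change was 0.05, and the summed level was 249.7 CPM in Ctrl basal and 272.4 CPM in CL basal.

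Adipocytes and sebaceous cells are rich in *Scd1*. The 12 adipocyte markers summed to 138 CPM in Ctrl basal and 105.9 CPM in CL basal, with 4 of the 7 tested lower past 1.5-fold and 0 higher. Most of that sum was *Fabp4*, which endothelial cells also express, with 4648 and 3465 counts, followed by *Lipe* (356 and 428) and *Plin4* (102 and 86). Named after their values were seen, the 4 lower markers were *Car3* (26 and 4 counts), *Pck1* (22 and 4), *Plin1* (30 and 12) and *Lep* (88 and 52). *Adipoq*, the defining adipocyte gene, had 5 and 10 counts, and *Adrb3* was at 0 in both libraries. The 8 sebaceous markers summed to 26.2 and 24.9 CPM, of which *Far2* made up most (884 and 886 counts). *Cidea* had 96 and 54 counts and *Scd3* 13 and 8, while *Awat1* and *Dgat2l6* were at 0 in both. Suprabasal keratinocyte markers summed to 34.9 CPM in Ctrl basal and 36.4 CPM in CL basal, with 3 of the 7 tested higher and 1 lower past 1.5-fold (*Sbsn* 1196 and 615 counts, *Krt1* 19 and 367, *Krt10* 38 and 262). The luminal markers with the most counts were *Krt8* (86539 and 53150), *Krt18* (49639 and 27492) and *Epcam* (40023 and 33600). The part of these cells in the values of *Scd1*, *Scd2* and *Nsdhl* was not tested.

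**Figure D3:**
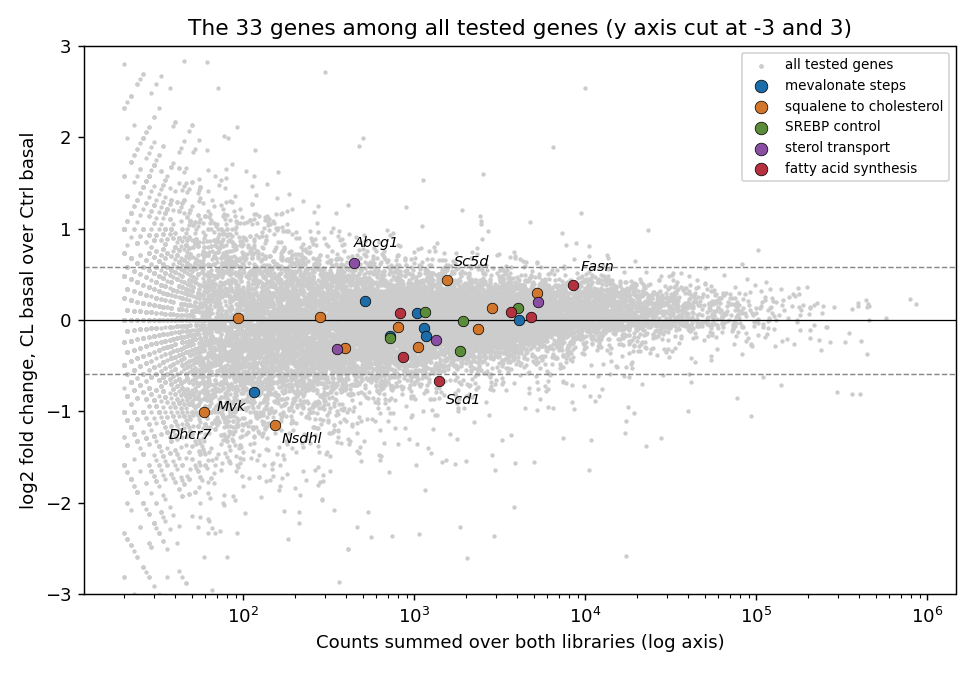
The difference in log2 (CL basal over Ctrl basal) against the counts summed over both libraries (log axis), with all tested genes in grey where they lie between -3 and 3 and the 33 genes in the colour of their role. The spread of the grey points widens at low counts, where *Dhcr7*, *Mvk* and *Nsdhl* lie, while *Scd1* (-0.67) lies below the lower dashed line among genes of high count.

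The depth behind a gene set how far its difference could be read. Of the 33 genes, 19 had at least 1000 counts over both libraries, and their log2 fold changes ran from -0.67 to 0.44 with a standard deviation of 0.27, against 0.28 over all 7097 genes with as many counts. *Scd1* was the only 1 of the 19 past 1.5-fold, against a background of 2.21% lower and 1.04% higher. Of the 12 genes with at least 100 but under 1000 counts, 2 were lower (*Nsdhl* and *Mvk*) and 1 was higher (*Abcg1*), where 11.9% and 4.91% of all such genes were. *Dhcr7* and *Tm7sf2* had fewer than 100 counts, a class in which 14.6% of genes were lower and 8.39% higher.

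Further genes of the same pathways were read in lists. Of 15 further sterol genes (other synthesis enzymes, uptake, SREBP proteases and lysosomal sterol handling), 2 were lower past 1.5-fold and 0 higher, with a median log2 fold change of -0.03, where 8.54% of all tested genes were lower and 4.10% higher. *Lipa*, the lysosomal acid lipase, had 114 counts in Ctrl basal and 59 in CL basal (log2 fold change -0.93, interval -1.43 to -0.49), and *Stard3*, which tethers late endosomes for sterol transfer, had 182 and 120 (-0.60, -0.95 to -0.26). Of 12 genes of the liver X receptors and sterol efflux, 10 were tested, 1 was lower and 0 were higher past 1.5-fold, also near that background, with a median of -0.06. The lower gene was *Abca7*, a lipid transporter, with 89 and 51 counts (-0.78, -1.33 to -0.30).

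Of 29 further fatty acid genes, 27 were tested, 2 were higher and 0 were lower past 1.5-fold, and the median log2 fold change was -0.05. Of all tested genes 4.10% were higher and 8.54% lower by this call. *Elovl4*, which extends very long chains and is known for the skin barrier, had 491 counts in Ctrl basal and 783 in CL basal, a difference of 0.67 in log2 (interval 0.51 to 0.84, adjusted p 5.34e-15, exact binomial test). The other, *Hacd4*, a dehydratase of chain extension, is named although it had fewer than 100 counts, 21 and 44. *Scd4*, a further desaturase, was at 0 in both libraries.

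**Figure D4:**
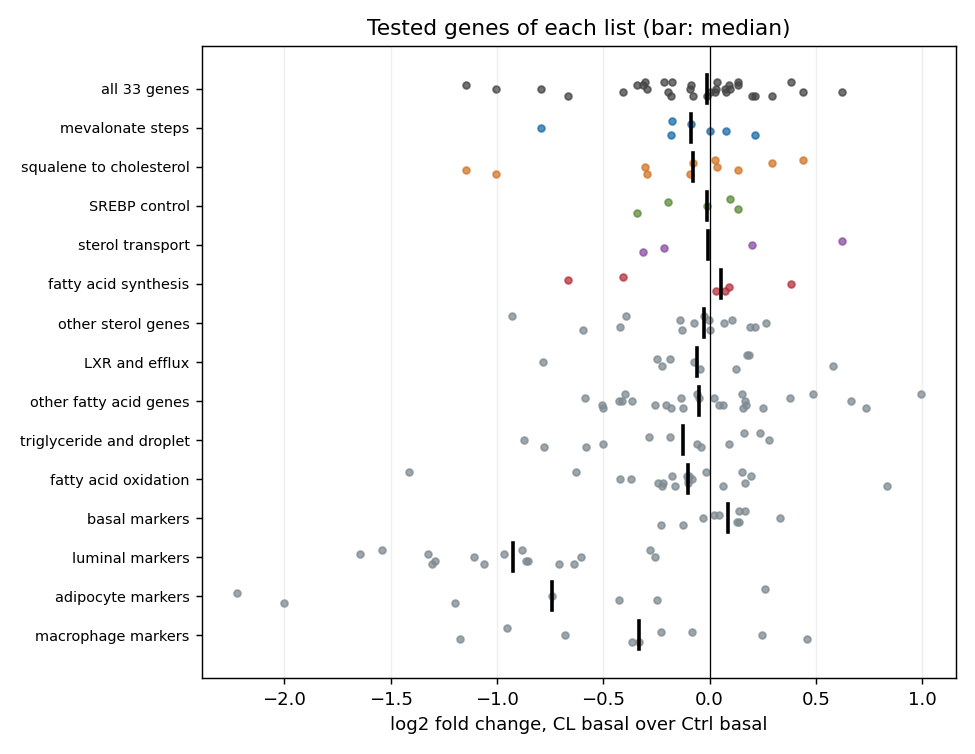
Differences in log2 (CL basal over Ctrl basal) for the tested genes of each list, 1 point per gene, with a bar at the median. The 5 roles and the further lipid lists centre near 0 (medians from -0.12 to 0.05), while the luminal markers centre at -0.92 and the adipocyte markers at -0.74.

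With a spread between animals assumed, which these libraries cannot give, few calls were left. With a coefficient of variation of 0.1 set by assumption, the exact test of edgeR called *Nsdhl* and *Scd1* lower past 1.5-fold and 0 of the 33 genes higher, where 4.16% and 1.65% of all tested genes were called. At 0.2 it called 0 of the 33 genes (0.622% and 0.242% of all tested genes), with a smallest adjusted p of 0.489, and at 0.4 also 0, where 0.00% of all tested genes were called lower and 0.0115% higher.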

How the data were processed

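RNA of sorted mammary basal cells was sequenced on an Illumina HiSeq X instrument. The authors deposited unnormalized read counts for each gene over its annotated exons, in the layout of featureCounts. The submitters' processing notes name GRCm38 and mm10, and the aligner, annotation release and use of strand are not given in the sources used here. A deposited ratio and log2 ratio of the 2 libraries were not used. Among genes with 1 to 20 counts, 67.9% (Ctrl basal) and 68.7% (CL basal) of the counts were even, so counts may not be independent and the intervals may be too narrow.

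Libraries were scaled with edgeR 4.0.16 by its TMM method (R 4.3.3; factors 1.0133 for Ctrl basal and 0.9869 for CL basal). Genes that reached 20 counts in the 2 libraries combined were tested by a two-sided exact binomial test (scipy 1.17.1, Python 3.11.15; 2 times the smaller tail), with Benjamini-Hochberg adjustment over all 17356. Log2 fold changes used a prior count of 2. A call needed an adjusted p under 0.05 and 2-fold, or 1.5-fold where stated. Levels were divided by exonic length. No model with a spread between replicates can be fitted to 1 library per group. The script was tested on simulated counts. Promoters came from RefSeq (GRCm38.p6). The genes, lists and tests were chosen with earlier results of these data known. Named were all 33 genes and, in further lipid lists, the called genes with at least 100 counts (at most 5 a list). Of each marker list, the 3 genes with the most counts were named. *Adipoq*, *Emcn* and genes at 0 in both libraries (*Scd4*, *Adrb3*, *Awat1* and *Dgat2l6*) were named besides, and other exceptions are stated. The alternatives were other scalings (total counts, DESeq2 1.42.0 size factors, upper quartile), prior counts of 0.5 and 5, no filter or at least 100 counts, counts halved, the deeper library thinned, trends on mean expression or gene length removed, and the exact test of edgeR with a coefficient of variation set by assumption.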

Additional observations from a re-analysis of the deposited data

How the results depend on the processing

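The count of 2 genes lower at 2-fold depended on *Dhcr7*, which sits at the threshold. It was 1 with the upper quartile (*Dhcr7* at -0.994), a prior count of 5 (-0.91), counts halved (-0.88), the trend on mean expression removed (-0.89) or the trend on gene length removed (-0.995). It was also 1 with at least 100 counts, where *Dhcr7* and *Tm7sf2* are not tested, and in the exact test of edgeR with the coefficient of variation set to 0.1, and it was 0 at 0.2 and at 0.4. At 1.5-fold it was 4, and the count of higher genes went from 0 to 1. With counts halved, *Mvk* and *Dhcr7* also lost the call at 1.5-fold, since fewer reads stand behind them, and 2 genes (*Nsdhl* and *Scd1*) were lower. Other settings of scaling, prior count, thinning and trend left the calls at 1.5-fold on *Nsdhl*, *Mvk*, *Dhcr7*, *Scd1* and *Abcg1*. The median of the 33 genes ran from -0.05 to -0.00 (-0.004), and that of all tested genes from -0.05 (-0.045) to 0.01. Of 361 values of the 33 genes under alternatives, 1 left its 95% interval (*Fasn* at 0.312 with the trend on mean expression removed). A change of sign was seen in 7, and the intervals of those genes include 0. No paired analysis was possible because neither group had a second library, and none could be left out.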

Other observations

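Genes that store and oxidize fatty acids included several of lower level in CL basal. Of 12 genes of triglyceride synthesis and lipid droplets, 2 were lower past 1.5-fold and 0 higher, with a median log2 fold change of -0.12 and a summed level of 275.2 CPM in Ctrl basal and 235.4 CPM in CL basal. The lower sum was that of *Plin2*, since the other 11 genes summed to 178.4 CPM in Ctrl basal and 179.0 CPM in CL basal, a comparison chosen after the values were seen. *Plin2*, the coat protein of lipid droplets, had 3712 counts in Ctrl basal and 2171 in CL basal, a difference of -0.78 in log2 (95% interval -0.86 to -0.70). *Lpin3*, a phosphatidate phosphatase, had 102 and 55 counts (-0.87, -1.40 to -0.41). Of 20 genes of fatty acid oxidation, 2 were lower past 1.5-fold and 0 higher, with a median of -0.10. *Cpt2*, the inner carnitine palmitoyltransferase of mitochondria, had 99 and 36 counts (-1.41, -2.06 to -0.90), and *Acads*, the short-chain acyl-CoA dehydrogenase, had 166 and 107 (-0.63, -1.002 to -0.28). The background for these calls was 8.54% lower and 4.10% higher. Summed levels of luminal (5410 and 3312 CPM) and macrophage markers (47.5 and 38.4 CPM) were also lower in CL basal. So were those of adipocyte (138 and 105.9 CPM), fibroblast (262.5 and 213.7 CPM) and endothelial markers (395.9 and 323.4 CPM). Single genes of these lists went the other way: *Mertk*, *Lipe*, *Col3a1* and *Emcn* were higher at the adjusted p. The part of such cells in the value of *Plin2* was not tested.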
